A study of Mus musculus with 3 samples.

Results

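The miR-200 family was examined on miRNA arrays of dendritic cells that had been grown from mouse bone marrow (BMDCs) and that present antigen to T cells, as a check on RNA from epithelial tumour cells. The 7 members, mmu-miR-200a, mmu-miR-200b, mmu-miR-200c, mmu-miR-200c*, mmu-miR-141, mmu-miR-141* and mmu-miR-429, were chosen by name, out of 568 mouse miRNA names on 579 probes. The rule uses no measured value, though it was written with earlier results of these data known. The control sample was BMDCs with no tumour line in its labels, and how long, in what serum and in which plates it was cultured is not stated in the sources used here. For the other samples, a transwell plate held the BMDCs in 3% serum for 24 h with either the ovarian tumour line ID8, spelled 1D8 in the deposited table, or the colon carcinoma line CT-26, both of mouse origin. The membrane of such a plate keeps the cells apart and lets soluble matter and small particles through. Mouse strain, age and the way the BMDCs were grown are not given in the sources used here. With 1 array per group and hence no replicate, nothing could be tested across samples, and each ratio describes a pair of arrays. In such bulk RNA, fewer cells of a type and less RNA per cell cannot be told apart.

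The miR-200 family is expressed in epithelial cells and is known for restraining ZEB1 and ZEB2, transcription factors that repress E-cadherin, and so for holding cells in the epithelial state. Its 5 genes lie in a pair of clusters, with Mir200b, Mir200a and Mir429 within 2000 bp of each other on chromosome 4 and Mir200c and Mir141 likewise on chromosome 6. Each hairpin gives a strand from its 3′ arm, the usual guide strand here, which the table names without a star, and one from its 5′ arm, the passenger strand, named with a star. Blood and dendritic cells are not a usual source of the family.

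The mature sequences in RefSeq (assembly GRCm38.p6) are shown because the probes differ in signal while their targets differ by few bases. Bases 2 to 8, the seed that pairs with target mRNAs, are in capitals. All 5 genes, and all 9 strands that have a probe in the table, were matched. The first 3 strands share 1 seed and are 3′ arms.
miR-200b: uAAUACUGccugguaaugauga
miR-200c: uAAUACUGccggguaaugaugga
miR-429: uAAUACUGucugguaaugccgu
The other 3′ arms share a seed that differs from the first by U4C, counted from 1 at the 5′ end of miR-200b and with its base first.
miR-200a: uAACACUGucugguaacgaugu
miR-141: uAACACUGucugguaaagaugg
The 5′ arms follow, and the last 2 of them, from Mir200b and Mir200a, are outside the 7 chosen probes.
miR-200c*: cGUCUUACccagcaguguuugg
miR-141*: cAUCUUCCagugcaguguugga
miR-200b*: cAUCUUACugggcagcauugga
miR-200a*: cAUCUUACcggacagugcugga

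Over the first 22 bases miR-200b and miR-200c differed at 2 positions (U11G and A22G), and miR-200a and miR-141 at 2 (C17A and U22G). Signal of a probe in such a pair is uncertain to the extent that it binds the other strand. The 5′ arms are less alike, with 5 to 8 differing positions in each pair. GC content was 36.4% to 43.5% in the 3′ arms and 50% to 54.5% in the 5′ arms. The hairpin of Mir200c, with its 5′ and 3′ arms in capitals, shows where the strands of the gene with the widest difference between arrays lie.
Mir200c: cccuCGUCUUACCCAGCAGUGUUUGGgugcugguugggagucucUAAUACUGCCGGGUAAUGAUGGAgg

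Array quality sets how these probes can be read. A floor of 50 units of corrected intensity, meaning fluorescence after subtraction of the local background, was reached by 30.2%, 33.2% and 30.7% of the mouse probes in control, ID8 and CT-26 samples. The brightest of 21 empty spots stood at 6, 1.75 and 2.25 units, while the brightest of 8 negative probes reached 59, 48.5 and 52 units. A probe above the floor is therefore not shown to hold the miRNA it is named for. The 40 marker spots of the Hy3 dye were nearly equal on the control and ID8 arrays, with raw intensities 1.75 to 4.75 units higher on the ID8 array at levels of 3027 to 5812.25 on the control array. On the CT-26 array their difference from the control ran from -1409 to 466.25 units. The mouse probes did not share this likeness, since their log2 ratios of ID8 over control had an SD of 0.57, against 0.00092 for the marker spots. Its part in the ID8 over control ratios was not tested.

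Among the 7 family probes, the same 3 were above the floor on each array, namely miR-200b, miR-200c* and miR-141*, beside the 30.2%, 33.2% and 30.7% of all mouse probes. The other 4 were under it on every array.

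The miR-200b probe, for the 3′ strand that targets ZEB mRNAs, read 143.5 units in control BMDCs, 141.5 beside ID8 cells and 97.25 beside CT-26 cells. The control and ID8 readings were nearly the same, and CT-26 was lowest.

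The other strands of that seed were under the floor. miR-200c, which shares the seed and differs from miR-200b at 2 positions, read 22 units on the control array, 16.5 on ID8 and 10.25 on CT-26, under the floor but above the brightest empty spot each time. miR-429, the third strand with that seed, read -0.25, 0.25 and -0.5 units, which is background. Of the 3 strands with this seed, 1 was thus above the floor, and its neighbour on chromosome 4, miR-429, gave no signal.

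The second seed was at background or close to it. miR-200a, from the same cluster as miR-200b, read 0.75, 1.75 and 1 units, at or under the brightest empty spot of every array. miR-141, from the Mir200c cluster, read 1.5, 6 and 7.75 units in the same order of arrays. It was the one family probe whose readings stood in the order control, ID8, CT-26 from low to high, and it passed the brightest empty spot on both co-culture arrays. All 3 readings were under the brightest negative probe of their array, so its ratio to the control enters only the values computed with no floor.

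Above the floor on every array were 3 of the 4 5′ strands. miR-200c* read 150.75 units on the control array, 134.75 on ID8 and 57.25 on CT-26. Its CT-26 reading was close to the floor and well below both other arrays. miR-141* read 82.5, 95.25 and 73.75 units, with ID8 highest. miR-200b*, outside the 7 but from the same hairpin as miR-200b, read 387.75, 382.75 and 237.5 units and had the same order of arrays as miR-200b. miR-200a* was at background, with 2.5, 2.75 and 1 units.

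**Figure D1:**
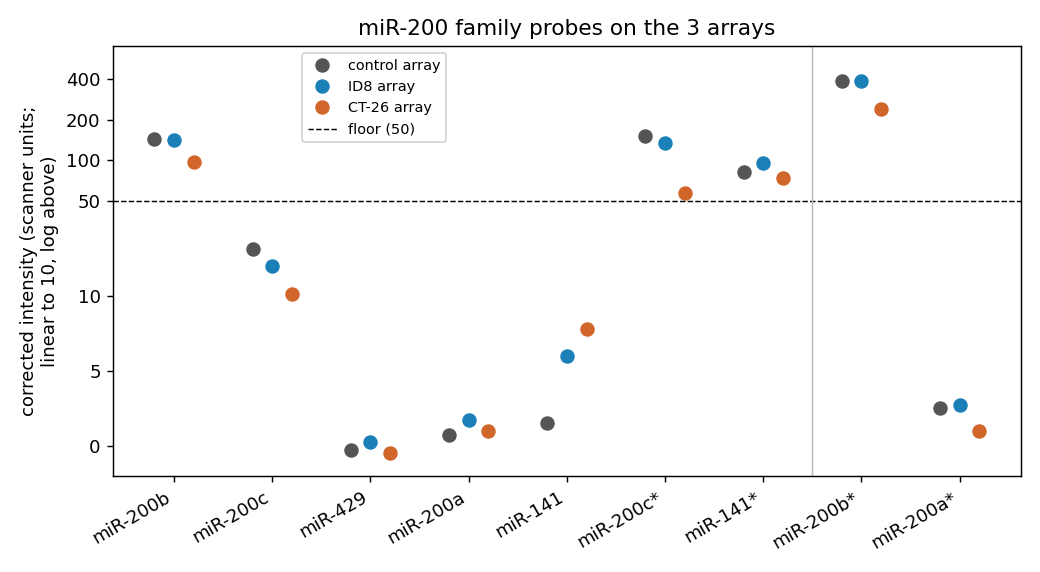
Corrected intensity (scanner units, linear up to 10 and logarithmic above) of each family probe for control, ID8 and CT-26, 1 point per array; the dashed line is the floor of 50 and probes right of the grey line are outside the 7. Points are to be compared within a probe, and CT-26 lies lowest for miR-200b, miR-200c, miR-200c*, miR-141* and miR-200b*.

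Detection thus fell on 1 of 5 unstarred and 3 of 4 starred family probes. Over the table the arms were about even, with 32.2% of 115 starred and 29.7% of 464 unstarred mouse probes above the floor on the control array, 31.3% and 33.6% on the ID8 array, and 29.6% and 31% on the CT-26 array. Of 101 precursors with both names on the array, 13 had the starred name above the floor on all 3 arrays and the unstarred name on none, and another 13 had the reverse. Mir200c and Mir141 belong to the first 13. Both names were above the floor on all arrays for 14 precursors, Mir200b among them, and under it on all arrays for 42, which include Mir200a.

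Ratios between arrays were taken from the authors' normalized intensity, which is the corrected intensity divided by 1 constant per array, for miRNAs above the floor on both arrays. Counts are of miRNAs that differed by 2-fold or more. The constants alone shift every log2 ratio by -0.29 for ID8 over control, by -0.04 for CT-26 over control and by -0.25 for ID8 over CT-26.

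Beside ID8 cells, the family members that could be measured stood at or below their control level. The normalized intensity of miR-200b was 0.355 on the ID8 array and 0.442 on the control array, a log2 ratio of -0.31. On corrected intensity that ratio was -0.02, so nearly all of it comes from the constants. miR-200c* had 0.338 against 0.464, a log2 ratio of -0.46, which was -0.16 on corrected intensity. miR-141* had 0.239 against 0.254 (-0.09). For miR-141* the ratio was 0.21 on corrected intensity, the opposite sign. Of the 3 members, 0 had a difference of 2-fold upward and 0 downward, where 4.85% and 3.03% of 165 mouse miRNAs did. Their median log2 ratio was -0.31, against 0.02 over those 165.

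Beside CT-26 cells, the measured members were lower than in control BMDCs, and miR-200c* was the one past 2-fold. Its normalized intensity was 0.171 on the CT-26 array and 0.464 on the control array, 2.72-fold lower (log2 ratio -1.44). The ratio lay below it for 7 of 158 miRNAs and above it for 150. miR-200b had 0.290 against 0.442, a log2 ratio of -0.61, and miR-141* had 0.220 against 0.254, a log2 ratio of -0.21. miR-200b* had a ratio of -0.75, close to that of the opposite strand of its hairpin. Of the 3 members 0 passed 2-fold upward and 1 downward, where 13.3% and 6.96% of 158 miRNAs did, and the median was -0.61, against 0.01 over all 158. The 2-fold call for miR-200c* ends when an offset of 50 is added to every intensity (log2 ratio -0.94), and at a floor of 100 its CT-26 reading is not counted as measured.

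The ID8 co-culture was then set over the CT-26 co-culture, a comparison that does not use the control array. miR-200c* was 1.98-fold higher on the ID8 array (log2 ratio 0.99), just short of 2-fold, and the ratio was higher for 4 of 175 miRNAs. It passed 2-fold without normalization, at a log2 ratio of 1.23. miR-200b had a log2 ratio of 0.29, miR-141* of 0.12 and miR-200b* of 0.44. Of the 3 members 0 passed 2-fold in either direction, where 2.29% of 175 miRNAs passed it upward and 6.29% downward, and the median was 0.29, against -0.01 over all 175. All of the control comparisons share the control array, so the ratios above are 3 readings per probe set side by side and not separate evidence.

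**Figure D2:**
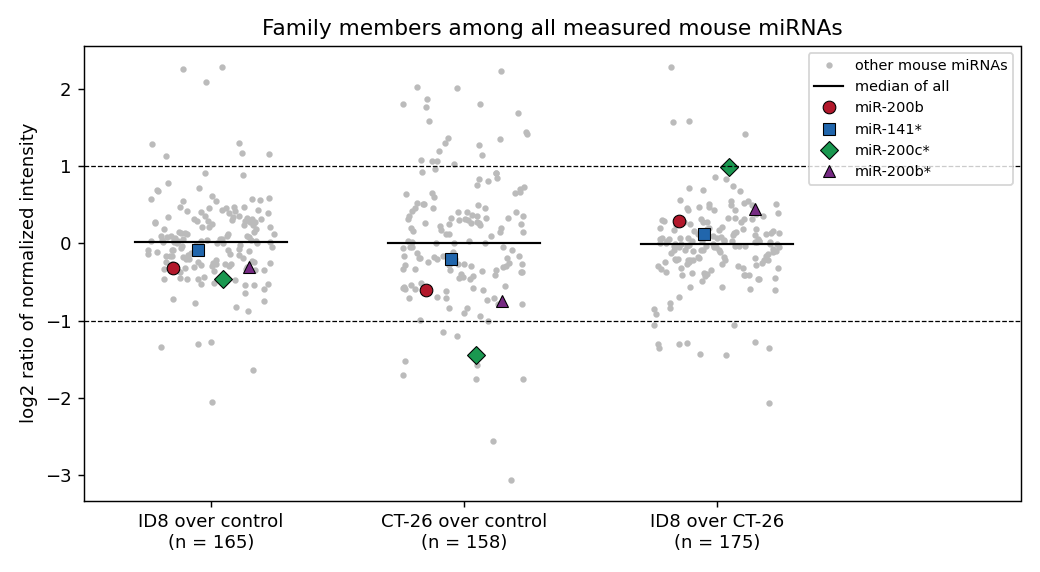
Log2 ratio of normalized intensity for each pair of arrays (n, number of mouse miRNAs above the floor on both); grey points are single miRNAs, black bars their median, dashed lines 2-fold, and coloured symbols the family strands above the floor. miR-200c* stands at -1.44 for CT-26 over control and 0.99 for ID8 over CT-26, while miR-200b, miR-141* and miR-200b* lie between the dashed lines.

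The order control, then ID8, then CT-26 from high to low held for all 3 measured members on normalized intensity, where it held for 29.6% of 159 mouse probes above the floor on all arrays. On corrected intensity miR-200b and miR-200c* kept it and miR-141* did not, where 18.2% of the probes had it. CT-26 was the lowest array for all 3 members on either scale, as it was for 39.6% of the probes on normalized and 46.5% on corrected intensity.

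Settings that divide each array by 1 number moved the ratios of the members together. Quantile normalization, the offset and normexp moved them by differing amounts. For CT-26 over control, the log2 ratio of miR-200c* lay between -2.51 (scaled to U6-snRNA-2, a spliceosomal RNA) and -0.94 over the 8 settings, that of miR-200b between -1.68 and -0.43, and that of miR-141* between -1.28 and -0.11. Scaling to U6-snRNA-2 shifted the median of all miRNAs to -1.06 in that comparison and to -1.25 for ID8 over control. Set against the median of all miRNAs in the same setting, miR-200c* stood at -1.51 to -0.95, miR-200b at -0.69 to -0.44 and miR-141* at -0.25 to -0.14 for CT-26 over control. A setting that divides each array by 1 number cannot move this difference, so its range comes from quantile normalization, the offset and normexp alone. For ID8 over control it was -0.53 to -0.38 for miR-200c*, -0.40 to -0.27 for miR-200b and -0.25 to -0.11 for miR-141*.

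**Figure D3:**
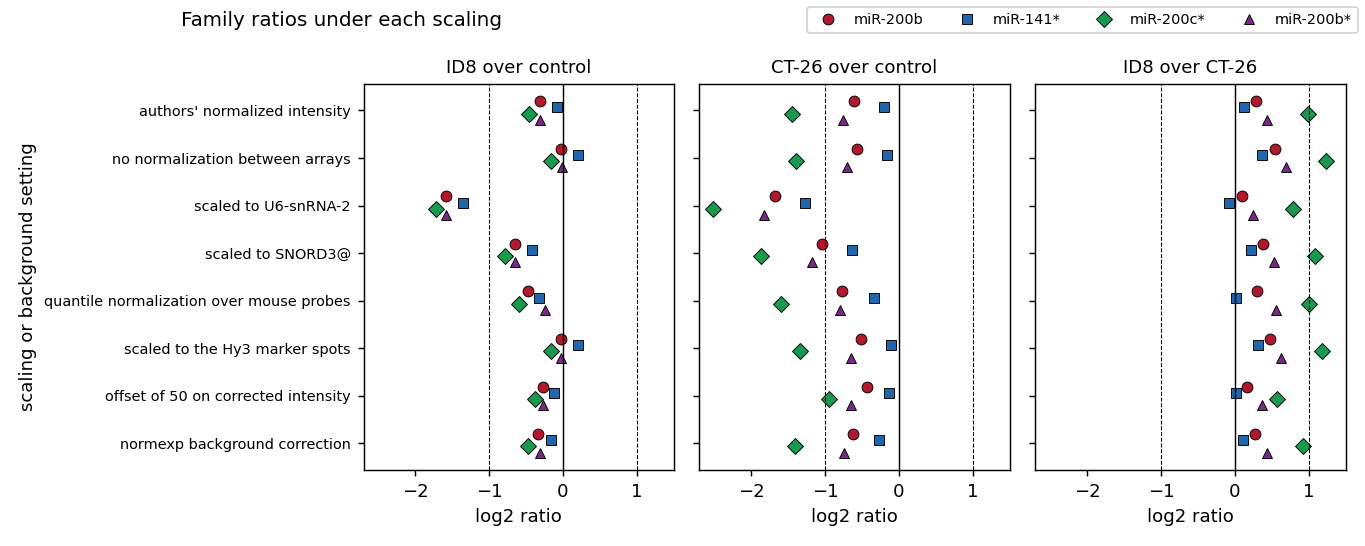
Log2 ratios of the 4 family strands above the floor (x axis) under each scaling or background setting (y axis), a panel per pair of arrays, with dashed lines at 2-fold. In the CT-26 over control panel all symbols lie left of 0, with miR-200c* between -2.51 and -0.94, while miR-141* crosses 0 in the other panels.

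Among the 3 members above the floor, each one's nearest patterns were looked up as the smallest distance of log2 normalized intensity over the 3 arrays, after centring each miRNA on its own mean, over 158 miRNAs. For miR-200b these were miR-382, miR-485*, miR-197, miR-466c-5p and miR-106b*, at distances of 0.03 to 0.11 on log2, and miR-200b* came sixth at 0.12. For miR-200c* they were miR-207, miR-574-3p, miR-466b-5p, miR-770-3p and miR-466e-5p, at 0.17 to 0.40. For miR-141* they were the joint probe of miR-467a* and miR-467d*, miR-466d-3p, the joint probe of the miR-297 group, miR-697 and miR-340-3p, at 0.04 to 0.07. Members under the floor could not appear in this search. None of the 3 above it was among the 5 nearest of another.

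A list of 11 other miRNAs of epithelial cells was read as well. Of these, 9 were under the floor on all arrays, between -3.75 and 27.5 units, and 1, 2 and 1 reached it on the control, ID8 and CT-26 array, beside 30.2%, 33.2% and 30.7% of all mouse probes. miR-205, of squamous epithelium, read -3.75 units on the control array, -0.25 on ID8 and -0.75 on CT-26. miR-375, of endocrine and gut epithelium, read -2.5, 0.75 and -1 units, so both were at background beside both tumour lines.

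miR-183, of the sensory and epithelial miR-183/96/182 cluster, read 44.25, 51.25 and 39.25 units and passed the floor on the ID8 array alone. miR-183*, which is outside the list, was above the floor on every array. Its log2 ratio was 0.55 for ID8 over control and 0.33 for CT-26 over control. miR-194, of gut and liver epithelium, read 51.75, 53.25 and 187 units. Its log2 ratio on normalized intensity was -0.25 for ID8 over control and 1.81 for CT-26 over control. The negative sign comes from the constants, since its ID8 reading was slightly above the control one. miR-192 and miR-215, which are made from the same clusters, read at most 19.75 units. With readings below 0 set to 0, the summed corrected intensity of the 11 was 177, 166.75 and 284.75 units, and miR-194 alone made up 187 of the CT-26 units.

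Mesenchymal and myeloid miRNAs were read for comparison. Of 14 mesenchymal miRNAs, 12 had a probe of that exact name, and 10 of these were under the floor on all arrays, at most 20 units. The list had 1, 2 and 1 members above it on the control, ID8 and CT-26 array, beside the same shares of all mouse probes (30.2%, 33.2% and 30.7%). miR-214, expressed in fibroblasts, read 389.25, 374.5 and 314.75 units, and miR-10a, of a Hox cluster, 47.5, 66.25 and 31.75 units. All 13 miRNAs of the list called myeloid reached the floor on at least 1 array. Of these, 9 did so on the control, 13 on the ID8 and 12 on the CT-26 array, again beside 30.2%, 33.2% and 30.7%. The list was chosen with earlier results of these data known, and its members are not all specific to myeloid cells. These counts are therefore no reading of cell type. The summed corrected intensity of the 13 was 2037.25, 4935.25 and 4302.75 units, lowest on the control array. The median log2 ratio was 1.16 over the 9 members above the floor on both arrays for ID8 over control. It was 1.54 over the 8 for CT-26 over control. Both leave out miR-223, miR-155, miR-146b and miR-27a, under the floor on the control array. The CT-26 median also leaves out miR-24, which read 46.25 units on the CT-26 array. In both comparisons 5 members were past 2-fold higher (miR-16, miR-21, miR-22, miR-142-5p and miR-146a), beside 4.85% and 13.3% of all measured miRNAs. Others had negative log2 ratios on normalized intensity, with miR-24 at -0.24 for ID8 over control and miR-142-3p at -0.41 for CT-26 over control. The sign for miR-24 comes from the constants, since it read 55.75 units on the control array and 58 on the ID8 array, both close to the floor. The part of this list, or of differing cell numbers, in the family's ratios was not tested.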

How the data were processed

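Total RNA was labelled with Hy3 dye and read on a GenePix 4000B scanner with GenePix Pro 6, per the labels' protocols and the series' design text. The authors deposited 3 columns of intensity per array for 1408 probes, per the file headers: raw, corrected and normalized intensity. Corrected over normalized intensity was a constant within each array (325, 398.25 and 335.25 for control, ID8 and CT-26), which the values show to be the median of corrected intensity over mouse probes that reach the floor on every array. The series matrix holds the same linear normalized values, with medians over all probes of 0.0277, 0.0226 and 0.0231. No genome build is named in the sources used here.

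Ratios, floor and counts were computed with Python 3.11.15, numpy 2.4.6 and pandas 2.3.3, and normexp with limma 3.58.1 in R 4.3.3. Ratios are on log2, with probes of 1 name averaged. With no floor, corrected intensities under 0.25, the step of the values, were set to 0.25. The calculation was tested on simulated arrays. Their changes were larger than 2-fold and were set only in probes well above the floor. That test therefore says nothing about 2-fold calls near the floor. Starred names were taken as 5′ arms and unstarred ones as 3′ arms, as the family's older naming has it. The members, the epithelial, mesenchymal and myeloid lists, the naming rule (all family probes, list members above the floor on any array, the 5 nearest patterns) and the alternatives were chosen with earlier results of these data known. miR-205, miR-375, miR-192, miR-215, miR-183*, miR-107 and miR-678 were named after their values were seen. The number of arrays limits the precision.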

Additional observations from a re-analysis of the deposited data

Results flagged for a closer look

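On normalized intensity, miR-194 and miR-142-3p had ratios of opposite sign in the 2 co-cultures, each with 1 array, and the difference was not tested. It is not particular to them. Outside the lists, miR-107 had -0.22 for ID8 over control and 1.14 for CT-26 over control, and miR-678 had 0.05 and -1.52. The share of all measured miRNAs with opposite signs is not given here. The log2 ratio of miR-194 was -0.25 for ID8 over control and 1.81 for CT-26 over control. Its corrected intensity was 51.75 units on the control array and 53.25 on the ID8 array, both close to the floor. The negative sign for ID8 thus comes from the constants. The log2 ratio of miR-142-3p, a blood cell miRNA, was 0.13 for ID8 over control and -0.41 for CT-26 over control. None of the 3 family members above the floor had ratios of opposite sign on normalized intensity.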

How the results depend on the processing

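With no replicates, no array could be left out of a comparison, and no paired analysis was possible because each group had 1 array. The count of family probes above the floor, 3 on each array at a floor of 50, was 0 on the CT-26 array at a floor of 100. It was 0 on all arrays at the 95th percentile of the viral probes. That percentile stood at 2400.27, 3666.55 and 3148.45 units on the control, ID8 and CT-26 array, far above every family reading. With the floor set to the brightest empty spot, 6 were at or above it on ID8, with miR-200a equal to it, and 5 on CT-26. Over all 7 probes with no floor, a value made mostly of readings near background, the median log2 ratio was -0.29 for ID8 over control, -0.21 for CT-26 over control and 0.29 for ID8 over CT-26. Over all 568 mouse miRNA names with no floor it was -0.12, -0.04 and -0.01. The family value of -0.29 is that of miR-429, which counts as 0.25 units on both the control and ID8 arrays. It thus holds only the constants and no difference in reading. In that order of comparisons the median of the 7 was 0, -0.16 and 0.54 without normalization. It was -1.56, -1.28 and 0.095 scaled to U6-snRNA-2, -0.63, -0.64 and 0.39 scaled to SNORD3@, and -0.32, -0.45 and 0.31 with quantile normalization. It was -0.0033, -0.11 and 0.48 scaled to the Hy3 marker spots, an alternative chosen after seeing the data. It was -0.24, -0.14 and -0.076 with an offset of 50, and -0.48, -1.07 and 0.11 with normexp.

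Members at least 2-fold lower for CT-26 over control numbered 1, against 0 at a floor of 100, 2 with no floor, 2 at 1.5-fold, 3 scaled to U6-snRNA-2 and 2 scaled to SNORD3@. For ID8 over control there were 3 lower scaled to U6-snRNA-2 in place of 0. Under that scaling the median log2 ratio of all measured miRNAs was itself past 2-fold lower, at -1.25 for ID8 over control and -1.06 for CT-26 over control. These calls are thus not particular to the family. Scaled to SNORD3@ that median was -0.42 for CT-26 over control. Shares of all miRNAs are not given for these alternative settings. With no floor 1 member was higher for ID8 over control and 1 for CT-26 over control, in place of 0. In each it was miR-141, whose readings are near background. For ID8 over CT-26, 1 was higher in place of 0 at 1.5-fold, without normalization, scaled to SNORD3@, with quantile normalization and scaled to the Hy3 marker spots. Signal over background limits miR-200a, miR-200c, miR-141 and miR-429, which were under the floor on every array and have no usable ratio.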
